A study of Mus musculus with 2 samples.

Results

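Fgf10, Etv4, Grem1, Wnt5a and Sfrp5 are 5 genes of the Fgf, Bmp and Wnt pathways, and they were taken by their symbols from a table of 250 genes that the authors had called changed between control and mutant mouse pancreas. All 5 were found there. They were chosen by their FPKM values in this contrast, so those values are a description. RNA came from whole pancreas of mouse embryos at E12.5, and each genotype gave 1 library. The control library was a pool of 6 pancreata, and the labels give its genotype as control without naming its alleles. The mutant library was a pool of 12 pancreata of genotype Pdxcre;Gata4fl/fl;Gata6fl/fl. A Cre recombinase under the Pdx1 promoter removes the floxed transcription factor genes Gata4 and Gata6 where it is made, including the pancreatic epithelium. The title of the series adds Tom to the mutant genotype. No sorting of cells is described, so each value sums over epithelium, mesenchyme and the other cells of the bud, and fewer cells of a type cannot be told apart from less RNA per cell. Since neither genotype was replicated, values stand without errors and differences without a replicate check.

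Pancreatic epithelium grows under signals from the mesenchyme around it. Fgf10 is one of these, a secreted growth factor made by mesenchyme that keeps pancreatic progenitors of the mouse dividing through a receptor on the epithelium. Etv4 is a transcription factor of the ETS family whose gene is switched on by Fgf signalling. Gremlin 1, from Grem1, is a secreted protein that binds Bmp ligands and keeps them from their receptors. Wnt5a is a secreted Wnt ligand that acts mostly without β-catenin and is needed for the gut and other organs to lengthen. Sfrp5 encodes a secreted protein with a domain like that of Frizzled receptors, which binds Wnt ligands away from them.

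Fgf10, Etv4, Grem1 and Sfrp5 were higher in the mutant library and Wnt5a was lower. The deposited values are FPKM, a level corrected for both the length of the transcript and the depth of the library. Levels of different genes were therefore set side by side. This holds only as far as the transcript lengths used are right, which was not tested. The summed level of all 5 genes was 28.3 FPKM in the control library and 68.9 FPKM in the mutant library. For the 4 higher genes alone it was 12.6 FPKM in the control and 66.5 FPKM in the mutant. Those 4 were grouped by their direction, so their sum had to be higher in the mutant. In the control library the order of levels was Wnt5a at 15.7 FPKM, Etv4 at 6.79, Fgf10 at 2.86, Sfrp5 at 2.30 and Grem1 at 0.649. In the mutant library it was Etv4 at 21.0 FPKM, Sfrp5 at 17.5, Fgf10 at 16.1, Grem1 at 11.9 and Wnt5a at 2.39. Wnt5a thus went from the first place to the last, and the others kept their order except that Sfrp5 stood above Fgf10. With no spread between replicates, it cannot be said which neighbours in these orders differ.

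**Figure D1:**
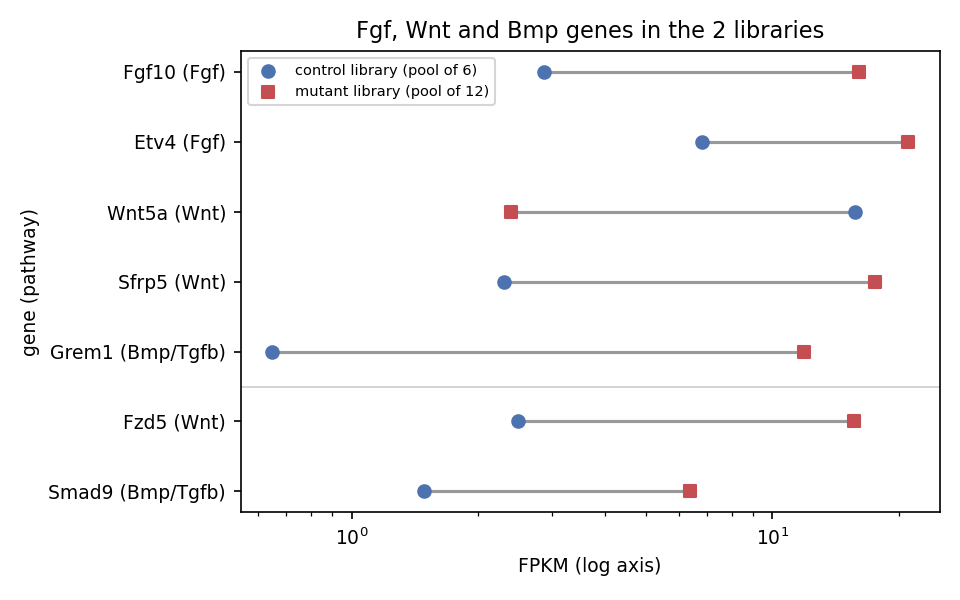
FPKM on a log axis in the control library (blue circles) and the mutant library (red squares), 1 value per gene and library with no error. The 5 signal genes are above the line and Fzd5 and Smad9, of the same pathways, below it. Wnt5a is the gene of the 7 shown whose mutant value, 2.39 FPKM, lies below its control value, 15.7 FPKM.

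Called by size, at a 2-fold change or more on the log2(FPKM + 1) scale with at least 1 FPKM in at least 1 library, 4 of the 5 genes were higher in the mutant and 1 was lower. The same call over the whole table gave 48.4% of 250 genes as higher and 45.2% as lower. All 5 genes passed the FPKM minimum. The table holds called genes alone and the members come from it, so these counts say nothing about the members. The median ratio of the 5 was 2.15 on that scale, which is the value of Fgf10, and the median over the table was 0.87. Both medians depend on the mix of higher and lower genes, so they were not compared in size. Over the table, the median level was 3.84 FPKM in the control library and 5.80 FPKM in the mutant library. In the control library 2 of the 5 genes were above that median, Wnt5a and Etv4, and in the mutant library 4 were, with Wnt5a below.

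**Figure D2:**
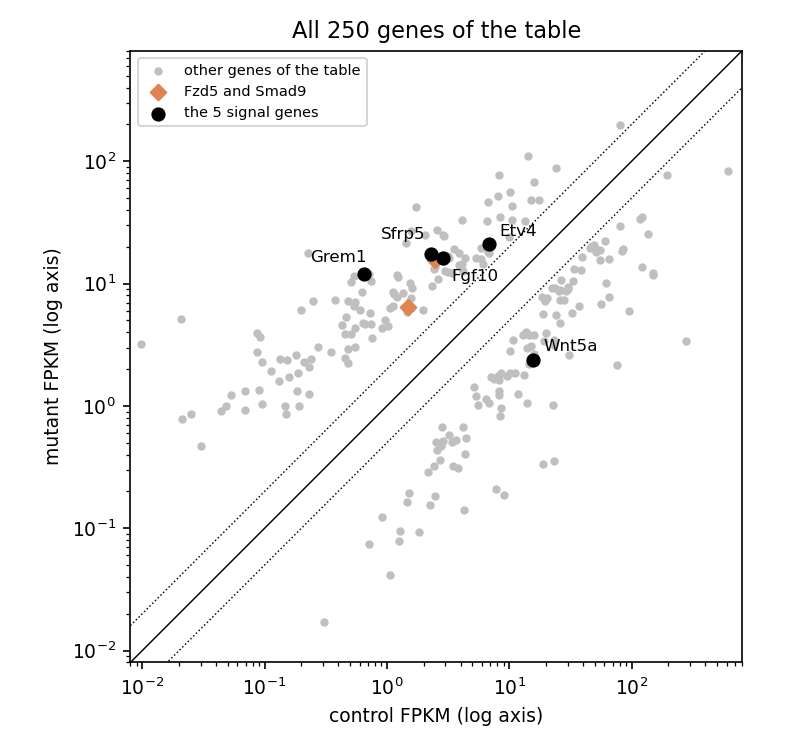
Control against mutant FPKM on log axes for the 250 genes of the table, with equality as a solid line and a 2-fold ratio as dotted lines. The 5 signal genes are black, and Fzd5 and Smad9 are orange diamonds. Of the black points, 4 lie above the upper dotted line and Wnt5a lies below the lower one.

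Promoter sequences are shown for the members that have an entry in the RefSeq table of promoters, which is on build GRCm38.p6, not on the mm9 build of the deposited loci. They are Fgf10, Grem1 and Sfrp5, each higher in the mutant; Etv4 and Wnt5a have no entry. Each window runs from 250 bases before the start site to 50 after it, written 5′ to 3′ on the strand of the gene. They are shown because Gata4 and Gata6 are the genes targeted in the mutant, and capitals mark matches on either strand to the Gata motif, spelled AGATAA, or the same with T first, with G last, or with both changes. The windows are chr13:118714449-118714748 on the plus strand for Fgf10, chr2:113758599-113758898 on the minus strand for Grem1 and chr19:42202203-42202502 on the minus strand for Sfrp5.
Fgf10: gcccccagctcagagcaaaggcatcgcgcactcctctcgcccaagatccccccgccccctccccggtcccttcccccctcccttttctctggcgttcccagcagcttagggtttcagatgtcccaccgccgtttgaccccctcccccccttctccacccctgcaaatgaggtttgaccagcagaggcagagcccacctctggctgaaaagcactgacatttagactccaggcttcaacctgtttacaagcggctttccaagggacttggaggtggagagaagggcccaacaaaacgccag
Grem1: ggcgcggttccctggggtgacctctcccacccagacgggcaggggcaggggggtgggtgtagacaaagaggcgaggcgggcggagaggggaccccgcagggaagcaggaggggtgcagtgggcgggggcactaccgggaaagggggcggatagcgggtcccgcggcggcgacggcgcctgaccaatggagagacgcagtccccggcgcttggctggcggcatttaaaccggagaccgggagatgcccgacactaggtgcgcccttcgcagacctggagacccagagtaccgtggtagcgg
Sfrp5: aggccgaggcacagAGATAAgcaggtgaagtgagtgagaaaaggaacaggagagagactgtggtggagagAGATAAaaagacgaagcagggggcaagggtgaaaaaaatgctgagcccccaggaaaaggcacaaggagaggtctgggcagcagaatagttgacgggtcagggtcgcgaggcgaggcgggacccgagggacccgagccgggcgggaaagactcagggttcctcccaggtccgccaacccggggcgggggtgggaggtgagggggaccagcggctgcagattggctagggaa

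The Sfrp5 window held 2 matches to the Gata motif, both AGATAA on the strand of the gene, and the Fgf10 and Grem1 windows held 0. The nearer match ended 174 bases before the start site and the farther one 230 bases before it. Among all 32851 promoter windows 29.8% held at least 1 match and 7.77% held at least 2, and of the 195 windows of genes in the deposited data, 25.6% held at least 1. The Gli motif TGGGTGGTC was in 0.253% of all windows, the TCF/LEF motif, CTTTGA followed by A or T, in 8.65% and the ETS motif CCGGAAG in 8.86%. No match to these other motifs, on either strand, was found in the 3 printed windows. A match is a stretch of letters and not a measured binding site. The G and C share was 60.7% for Fgf10, 61.3% for Sfrp5 and 70.7% for Grem1, beside a median of 52.7% over all windows and 58.3% over those of genes in the deposited data.

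Fgf10, the growth factor, was at 2.86 FPKM in the control library and 16.1 FPKM in the mutant library. The mutant level was 5.63 times the control level, a log2(FPKM + 1) ratio of 2.15. By this ratio Fgf10 was in place 37 from the highest of the 250 genes. The q for Fgf10 in the authors' deposited table was 2.97e-05, and like every q there it compares 2 libraries and not replicates. On mm9 the deposited locus is on chromosome 13, from 119503506 to 119581380 on the plus strand. It begins 44908 bases inside the gene annotated in GENCODE vM1. The annotated coding transcript has 3 exons. The noncoding gene Gm16263 overlaps this locus, and no source used here says whether counting used the strand of reads.

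Etv4, the Fgf-responsive transcription factor, had the smallest change of the 5. It was at 6.79 FPKM in the control and 21.0 FPKM in the mutant, 3.09 times the control level and a log2(FPKM + 1) ratio of 1.50. It was in place 89 from the highest, and its q in the authors' deposited table, 0.0340, was the largest of the 5. With ratios centred on 1.11, the median of the 238 genes of the table that passed the FPKM minimum, its value was 0.38, under the 2-fold limit. Etv4 (chromosome 11, 101631056 to 101646624, minus strand) lies 0.321 Mb from Pyy, a hormone gene of endocrine cells that is also in the table and lower in the mutant. Within a library, the level of Etv4 was 2.37 times that of Fgf10 in the control and 1.30 times in the mutant.

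The list of Fgf pathway genes, written with earlier results of these data known, had 42 members annotated in GENCODE vM1. Fgf10 and Etv4 were the 2 in the table, or 4.76%. Both had been chosen from the table, so their presence was fixed in advance. Of the genes the authors tested, about 14984 by their q-values, 1.67% are in the table. The denominators differ, since annotated genes include untested ones, so these shares were not compared for any list. The other 21 of 22 ligands, all 7 receptors and co-receptors, both adaptors and the other 10 of 11 annotated targets are outside it. The targets outside include Etv5, which is close to Etv4 in sequence, the phosphatase gene Dusp6 and the feedback inhibitor genes Spry1, Spry2 and Spry4. A gene outside the table was either not tested or not called by the authors, so nothing is known here of its level.

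Wnt5a was at 15.7 FPKM in the control library and 2.39 FPKM in the mutant library. The control level was 6.58 times the mutant level, a log2(FPKM + 1) ratio of −2.30, in place 26 from the lowest of the table. The q in the authors' deposited table was 2.28e-04. Both values were above 1 FPKM. Wnt5a (chromosome 14, 29318659 to 29338701, plus strand) has a deposited locus of 20.0 kb inside an annotated gene of 22.7 kb, and the noncoding gene Gm2670 overlaps it.

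Sfrp5, the Wnt antagonist, was at 2.30 FPKM in the control and 17.5 FPKM in the mutant. This was 7.62 times the control level, a log2(FPKM + 1) ratio of 2.49, in place 25 from the highest. Its q in the authors' deposited table was 2.78e-04. Sfrp5 (chromosome 19, 42272461 to 42276742, minus strand) has the same start and end in the table as in the annotation, with 3 exons and no overlapping gene.

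Wnt5a was the highest of the 5 in the control and the lowest in the mutant, so it changed places with each other member. Its exchange with the antagonist Sfrp5 is thus not particular to that pair. The Wnt5a level was 6.83 times that of Sfrp5 in the control library, and the Sfrp5 level was 7.34 times that of Wnt5a in the mutant library. Fgf10 and Wnt5a, both secreted ligands, did likewise, with Wnt5a at 5.50 times the level of Fgf10 in the control and Fgf10 at 6.73 times that of Wnt5a in the mutant.

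The Wnt list had 66 annotated members, of which 3 were in the table, or 4.55% beside the 1.67% of tested genes. Of these, 2 were higher and 1 was lower. Wnt5a and Sfrp5 had been chosen from the table, so their presence was fixed in advance. The member not yet described is Fzd5, which encodes a Wnt receptor of the Frizzled family, at 2.48 FPKM in the control and 15.6 FPKM in the mutant. Its ratio was 2.25 on the log2(FPKM + 1) scale, beside 2.49 for Sfrp5. The other 18 of 19 ligands, 17 of 18 receptors and 18 of 19 inhibitors are outside the table, as are the 4 R-spondin genes, the 5 genes of β-catenin and its partner factors, and Axin2, a common target of β-catenin.

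Grem1, the Bmp antagonist, was at 0.649 FPKM in the control library and 11.9 FPKM in the mutant library. The mutant level was 18.3 times the control level, a log2(FPKM + 1) ratio of 2.96, in place 9 from the highest of the 250 genes and the largest change of the 5. It is the one member under 1 FPKM in a library, so its ratio depends most on the pseudocount, at 1.58 with 5 and 4.19 with none in the authors' deposited table. Its first place depends on the setting. With a pseudocount of 5 the ratio of Sfrp5 was larger, at 1.63. With centring that of Wnt5a was larger in size, at −3.42 against 1.85 for Grem1. With 1 FPKM required in both libraries it was not called. The q in the authors' deposited table was 1.06e-06, the smallest of the 5. Grem1 (chromosome 2, 113588832 to 113598805, minus strand) lies 0.274 Mb from Actc1, a striated muscle actin gene that was also higher in the mutant, at 0.224 against 17.8 FPKM.

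The Bmp and Tgfb list, as counted here, had 75 annotated members. Grem1 and Smad9 were in the table, or 2.67% beside the 1.67% of tested genes. Both were higher in the mutant, and Grem1 had been chosen from the table. Smad9, which encodes a Smad protein that carries Bmp signals into the nucleus, was at 1.49 FPKM in the control library and 6.38 FPKM in the mutant library, a log2(FPKM + 1) ratio of 1.57. None of the 31 ligands, 14 receptors or 6 targets of the list, among them the Id genes, is in the table. Over the 3 lists, 7 of 183 annotated genes were in the table, or 3.83% beside the 1.67% of tested genes, 6 higher and 1 lower, with a median ratio of 2.15.

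**Figure D3:**
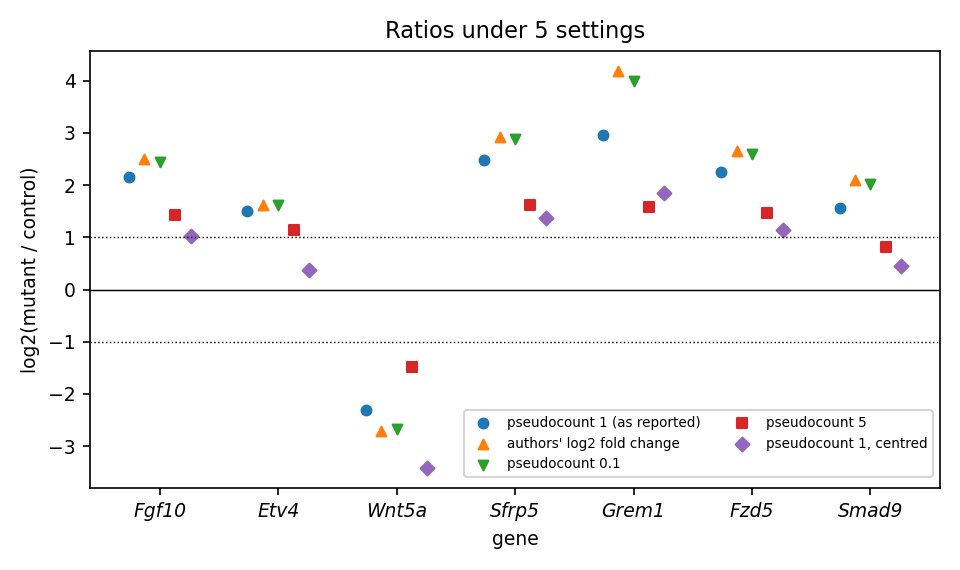
log2 of mutant over control for 7 pathway genes under 5 settings, 1 point per gene and setting, with no error. Dotted lines mark the 2-fold limit. All points of Wnt5a are below it, between −3.42 and −1.49, and Etv4 and Smad9 have their centred points inside it, at 0.38 and 0.45.

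Genes with the most similar pair of values were found by distance in log2(FPKM + 1) over the 2 libraries, which can show no more than a like level in each. Nearest to Fgf10 were Tspan8, Tlx2 and Isl2, and nearest to Etv4 were Hk2, Gfra1 and Zfhx4. Sfrp5 was nearest to Fzd5, Cd55 and Fgf10. Grem1 was nearest to Foxa1, an endoderm factor, Ihh, a hedgehog ligand, and Myocd, a factor of smooth muscle. Wnt5a was nearest to Nkx2-2, a factor of endocrine cells, Fxyd2 and Epha3. The distances ran from 0.0553, between Grem1 and Foxa1, to 0.275, between Wnt5a and Epha3.

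Markers of several cell types were looked up among the same 250 genes, which make up 1.67% of tested genes. Of these 250, 48.4% were called higher and 45.2% lower. Markers outside the table were not tested or not called, and they are in no direction count or sum. Each marker present had been called changed by the authors, so the sums describe called markers and not a whole cell type. Of 20 gut and pancreatic mesenchyme markers 5 were in the table, 4 higher and 1 lower in the mutant, and together they stood at 19.3 FPKM in the control and 142 FPKM in the mutant. Foxf1a, a forkhead factor of gut mesenchyme, was 8.17 against 76.6 FPKM, while Prrx1, a factor of limb and other mesenchyme, was 7.77 against 0.208 FPKM. Of 9 smooth muscle markers 7 were present, 6 higher and 1 lower, with a sum of 70.5 against 198 FPKM. Of 8 annotated spleen primordium markers 2 were present, Tlx1 and Wt1, and both were lower, with a sum of 49.6 against 5.14 FPKM. Wt1 is also on the mesothelium list, where it and Msln were the 2 of 9 present, at 26.3 against 5.71 FPKM together. Wt1 made that sum lower, at 26.2 against 4.79 FPKM, while Msln was higher in the mutant, at 0.0695 against 0.920 FPKM, under the FPKM minimum in both.

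Of 13 pancreatic epithelium markers Cpa1 and Prox1 were in the table, both lower, with a sum of 287 against 6.21 FPKM, of which Cpa1 alone gave 277 in the control and 3.39 in the mutant. Of 13 gut epithelium markers 6 were present and all 6 were higher, with a sum of 2.68 against 36.9 FPKM. Of 11 neural and neural crest markers 5 were present, all higher, at 16.7 against 86.4 FPKM. Of 9 skeletal muscle markers 5 were present, all higher, at 1.01 against 33.9 FPKM. The 4 of 6 myeloid markers present were lower, at 168 against 29.2 FPKM, and no endothelial or blood marker is in the table. No marker in the table was at 0 in either library. Whether these signals came from mesenchyme cannot be read from libraries of the whole pancreas, and the part of any cell type in the values of the 5 genes was not tested.

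**Figure D4:**
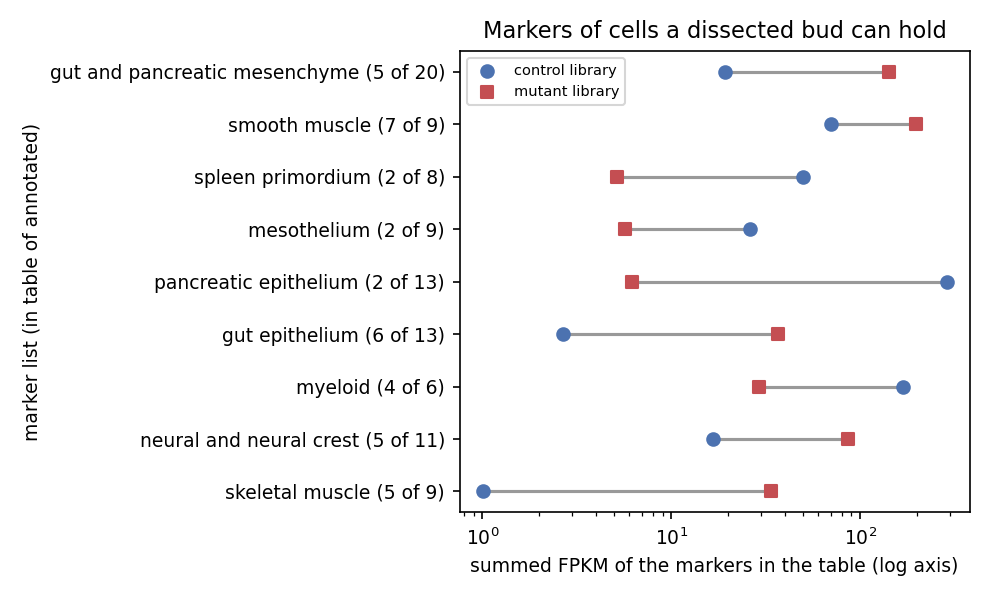
Summed FPKM on a log axis of the markers that are in the table, for each list and library, with the number present out of those annotated in brackets. The table holds called genes alone, and markers outside it are in no sum. Mesenchyme, smooth muscle, gut epithelium, neural and skeletal muscle sums are higher in the mutant library, and spleen, mesothelium, pancreatic epithelium and myeloid sums are lower, the mesothelium sum through Wt1.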

How the data were processed

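The authors deposited 1 table of 250 genes with an FPKM value for each library. They also deposited a log2 fold change, a test score of the opposite sign, a p-value and a q-value for each gene. Per the labels, TopHat 2.0.4 placed more than 20000000 reads on mm9. A read could have up to 10 hits and 4 mismatches, so near-identical genes can share reads. CASAVA 1.8.2, Cufflinks and DESeq are further tools in the submitters' processing notes. The table has the column names of Cuffdiff, so which program made the p-values and q-values is not known, nor what scaling was applied between the libraries. The depth of each library is otherwise unknown, so no value has an interval. The deposited log2 fold change equals log2 of the FPKM ratio within 1.42e-05. From q, p and rank, the authors tested about 14984 genes. Neither Gata4 nor Gata6 is in the table, so the targeted genes give no check of the labels.

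No test was run, because each genotype has 1 library. The ratio was log2((mutant FPKM + 1)/(control FPKM + 1)), which understates the change of low genes. A gene was called at a size of 1 or more with at least 1 FPKM in 1 library. The named genes are the 5 members, the genes of the 3 pathway lists that the table holds, Gata4 and Gata6, and the 3 nearest genes to each member, predicted genes left out. Other genes are named as list members outside the table, as markers, or as neighbours on a chromosome, chosen after their values were seen. Some results are not reported here and are left out of the list counts. The members and lists were chosen with earlier results of these data known. Loci are on mm9 with 1-based starts and were compared with GENCODE vM1, which is on the same build. Promoters are those of RefSeq on GRCm38.p6, with entries for 3 of the 5 members. Calculations used Python 3.11.15, pandas 2.3.3 and numpy 2.4.6. The calls were also run on control values multiplied by set factors without noise. That checks the arithmetic of the calls and not the differences between the 2 libraries.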

Additional observations from a re-analysis of the deposited data

How the results depend on the processing

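Each of the 5 genes kept its direction under the 9 alternatives, where it had a value. A pseudocount cannot turn a direction, and the deposited log2 fold change is the ratio of the same values. Etv4 was not called with centring (0.38) or at 4-fold (value as reported, 1.50). It has no value with a q of at most 0.01, and Grem1 has none with 1 FPKM in both libraries. The count of higher Fgf genes became 1 with centring, 1 at 4-fold and 1 with a q of at most 0.01. The count of 2 higher Bmp and Tgfb genes became 1 with a pseudocount of 5, 1 with centring, 1 with 1 FPKM in both libraries and 1 at 4-fold. The median ratio of the members was 2.45 with a pseudocount of 0.1, 1.42 with 5, 2.49 with the deposited log2 fold change, 1.03 with centring, 1.82 with 1 FPKM in both libraries and 2.32 with a q of at most 0.01. The whole table had 121 higher and 113 lower genes. A pseudocount of 5 gave 69 higher and 75 lower, and the 4-fold limit gave 50 higher and 37 lower. Higher genes became 38 with centring, beside 114 lower, and 70 with 1 FPKM in both libraries. Lower genes became 66 with a q of at most 0.01. The value subtracted in centring, 1.11, is the median of the 238 genes past the FPKM minimum, in a table of genes called changed. Smad9 was not called with a pseudocount of 5 (0.81), with centring (0.45) or at 4-fold. By their construction these alternatives enlarge, shrink, shift or remove ratios, or leave them as they are. No paired analysis was possible because each genotype has 1 library.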

Other observations

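A free-text remark stands in the last column of 12 rows of the deposited table, and none of the 5 genes has one. The remark "bmp antagonist" is in the row of Igfbpl1, where the control library has 3.25 FPKM and the mutant library 0.578 FPKM, and not in the row of Grem1. The remark "wnt signaling/cns" is in the row of Kazald1, at 18.7 against 0.338 FPKM, and not in those of Wnt5a, Sfrp5 or Fzd5. "Mesothelin" is in the row of Akap12, although Msln, which encodes it, has a row of its own. No source used here says which rows the remarks were meant for.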
